A study of Mus musculus with 18 samples.

Results

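The Toll-like receptors are the pattern-recognition receptors with which macrophages sense bacterial and viral products. The 10 genes described here, Tlr1, Tlr2, Tlr3, Tlr4, Tlr5, Tlr6, Tlr7, Tlr8, Tlr9 and Tlr13, were taken by gene symbol from 2 deposited count tables of 23052 genes each, and all 10 were present in both. All 18 libraries came from total RNA of bone marrow-derived macrophages of C57BL6/J wild type mice, differentiated over 7 days in a mix of 20% medium conditioned by L929 cells and 80% DMEM supplemented with FBS, and were made with a stranded TruSeq kit. The first table holds 12 libraries of endotoxin-tolerant macrophages: 4 with glutamine, 4 without glutamine, and 4 without glutamine to which AKG, the α-ketoglutarate of the series title, was given. The second table holds 6 libraries: 2 of untreated macrophages, 2 after 6 h with IL-4 and 2 after 6 h with LPS. The sources used here give neither the way tolerance was induced nor the doses of AKG, IL-4 and LPS. Nothing in the labels says that replicates came from separate animals or cultures, so p-values measure only the spread between these samples, which may be technical. The stated aim was to find transcriptome changes that depend on glutamine metabolism in tolerant macrophages.

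Each receptor has a leucine-rich ectodomain that binds ligand and a cytoplasmic TIR domain that recruits adaptors. Tlr1, Tlr2, Tlr4, Tlr5 and Tlr6 act at the cell surface, where Tlr2 pairs with Tlr1 or Tlr6 to bind lipopeptides, Tlr4 with its co-receptor binds LPS, and Tlr5 binds flagellin. Tlr3, Tlr7, Tlr8, Tlr9 and Tlr13 act in endosomes and bind nucleic acids. Myd88 is the adaptor of every receptor listed except Tlr3, which signals through Ticam1 (TRIF), an adaptor that Tlr4 uses as well.

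Library totals ran from 28302158 to 37834680 counts in the tolerant table and from 34227368 to 39760356 counts in the stimulation table. Levels are given in CPM, read counts relative to library size, scaled within each table by the trimmed mean of M-values (TMM), so levels of the 2 tables were not tested against each other. All 10 receptors passed the filter on low counts in both tables, which left 12492 and 12506 genes to test. The macrophage label held: the 9 macrophage markers (Adgre1, Csf1r and others) summed to between 30180 and 47876 CPM in every library. The stimulation labels held as well, since Arg1 was at 1074 and 1160 CPM with IL-4 against 3.07 and 2.39 CPM untreated, and Acod1 at 7322 and 6508 CPM with LPS against 21.6 and 17.1 CPM. Markers of plasmacytoid dendritic, B, T, NK and mast cells and of erythroid cells each summed to at most 1.71 CPM. In the stimulation table markers of 3 other cell types moved with the stimuli at low levels. Conventional dendritic cell markers summed to 1.06 and 1.15 CPM untreated, 5.74 and 5.24 CPM with LPS (Xcr1 rose) and 7.32 and 6.59 CPM with IL-4 (Flt3 and Zbtb46 rose). Neutrophil markers summed to 3.84 and 3.59 CPM untreated, 2.54 and 2.33 CPM with IL-4 (S100a8 fell) and 18.1 and 13.7 CPM with LPS (S100a8 and Camp rose), with Ly6g at 0 in all 6 libraries. Plasmacytoid dendritic cell markers went from 0.240 and 0.328 CPM to 1.53 and 1.71 CPM with LPS (Ccr9 rose), with Ly6d at 0. Their part in the results on the receptors was not tested. Stromal fibroblast markers were the exception and are given with the tolerant results. In bulk RNA, fewer cells of a type and less RNA per cell cannot be told apart.

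The family was divided between surface and endosomal receptors differently with LPS than in the other groups, as the plot of length-scaled levels shows. Levels of different genes were compared only as RPKM, that is CPM per kilobase of annotated exon. In tolerant macrophages with glutamine the endosomal receptors Tlr8 (140 ± 37.4 RPKM, SD, n = 4), Tlr13 (113 ± 13.9) and Tlr7 (111 ± 47.2) stood highest, and their order did not hold beyond the spread between libraries. Tlr13 led in untreated macrophages with 31.2% of the summed RPKM of the family, and Tlr8 led with IL-4 with 40.4%. With LPS the surface receptor Tlr2 led with 44.9% and its partner Tlr1 followed with 17.7%. Tlr5 was the lowest of the 10 in all 6 groups, at 1.54 RPKM or less.

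**Figure D1:**
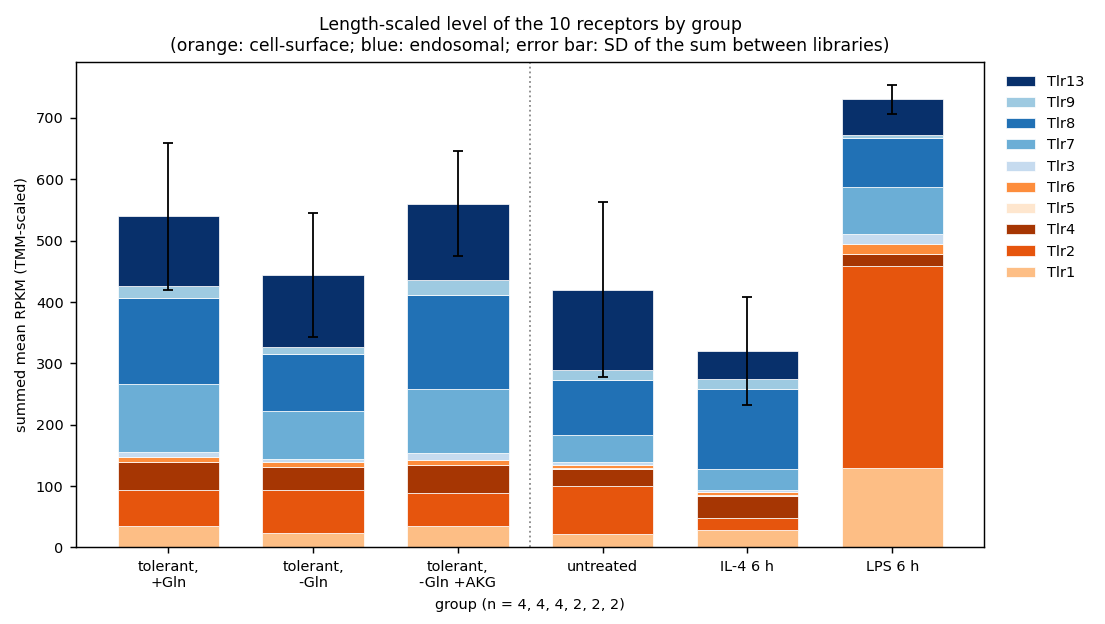
Summed length-scaled level of the 10 receptors (vertical axis, mean RPKM) in the 6 groups (horizontal axis), stacked by gene, with surface receptors in orange and endosomal receptors in blue. The bar for LPS reaches 730 RPKM and is mostly orange, while the other 5 bars lie between 320 and 560 RPKM and are mostly blue, and the error bars show the SD between libraries.

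The summed level of the 10 receptors was 714 and 747 RPKM in the LPS libraries, 319 and 521 untreated, and 383 and 258 with IL-4. Surface receptors made up 70.7% and 64.6% of it with LPS, 37.9% and 28.5% untreated, and 26.1% and 31.7% with IL-4. The tolerant libraries held from 20.0% to 34.5% of surface receptor, so the LPS libraries lay apart from the other 16. These shares are a description, and no test was run on them.

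The question of the stimulation set was how untreated macrophages differ from those given LPS or IL-4, which are commonly used as classical and alternative activation. After 6 h with LPS, 7 of the 10 receptors differed from untreated cells at an adjusted p under 0.05, and 52.1% of all tested genes did so. Tlr1, Tlr2, Tlr3 and Tlr6 rose, where 22.8% of tested genes rose, and Tlr5, Tlr9 and Tlr13 fell, where 29.3% fell. The median change of the 10 was a log2 of 0.30, against -0.10 over all tested genes. The LPS and untreated libraries did not overlap in 8 of the 10, as in 74.5% of tested genes. Offsets adjusted for the GC content of transcripts added Tlr7 to those that rose, where 61.7% of tested genes were called. LPS against IL-4 gave 6 of 10, with Tlr1, Tlr2, Tlr3 and Tlr6 higher (23.4% of tested genes) and Tlr5 and Tlr9 lower (29.7%), where 53.1% were called. GC-adjusted offsets gave 9 of 10 there, where 61.1% were called, adding Tlr7 and Tlr13 as higher and Tlr4 as lower. With the replicate block as well they gave 8 of 10, without Tlr4, where 57.9% were called. With IL-4 against untreated cells, 2 of 10 differed, and both fell: Tlr2 and Tlr13. Of all tested genes 20.1% differed with IL-4 and 10.5% were lower, and the medians were 0.08 for the 10 and -0.04 for all. GC-adjusted offsets added Tlr1 as higher and Tlr3 as lower (29.5% of tested genes called, and 24.9% with the replicate block as well). Adjusted p-values in the text are from edgeR's quasi-likelihood test with Benjamini-Hochberg adjustment over every tested gene of the table.

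**Figure D2:**
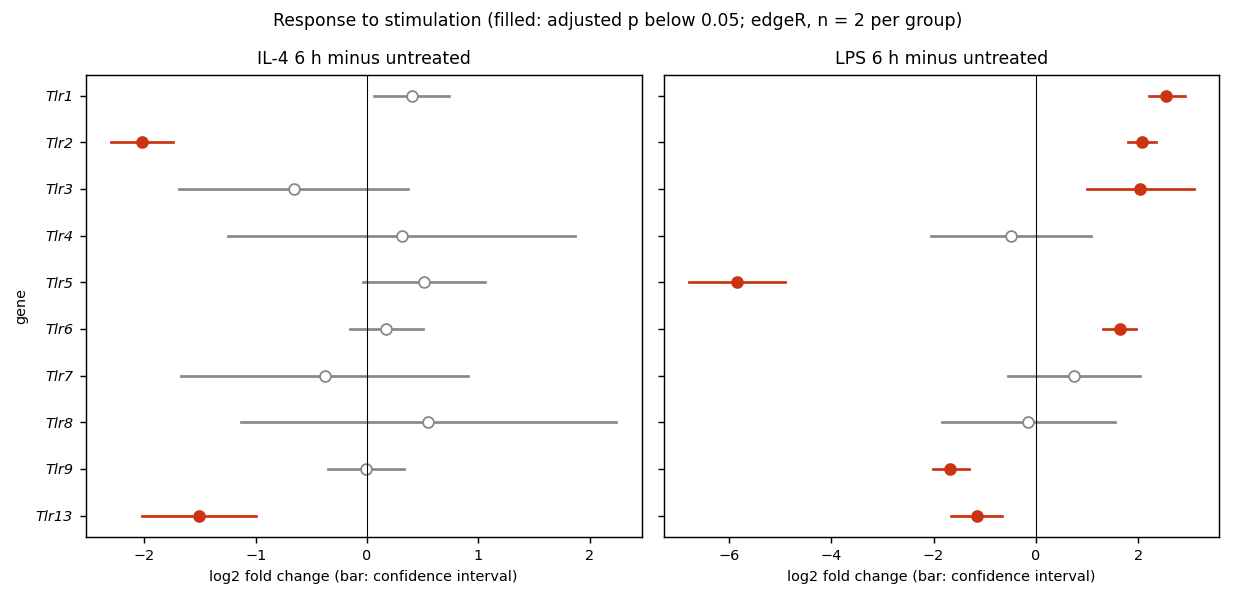
Log2 fold change of each receptor (horizontal axis) after 6 h with IL-4 (left) or LPS (right) against untreated macrophages, with 95% intervals and n = 2 per group. Filled points passed an adjusted p of 0.05: Tlr2 and Tlr13 lie left of 0 with IL-4, and with LPS Tlr1, Tlr2, Tlr3 and Tlr6 lie right of 0 and Tlr5, Tlr9 and Tlr13 left of it.

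Sequence upstream of 5 of the 7 receptors that changed with LPS is printed here to show which motif letters each stretch holds. Whether the letters bear on how these genes moved was not tested. The bases come from RefSeq (GRCm38.p6) and run 5′ to 3′ on the strand of the gene, cut to what lies outside every annotated exon, with motif matches in capitals. RefSeq held an upstream sequence for 8 of the 10 members. The motifs searched on both strands were the kappaB consensus of NF-kappaB, GAAANNGAAA of interferon-response elements, TGANTCA of AP-1, TTCNNNNGAA of STAT6 and GAGGAA, a core read by Ets factors such as PU.1.
Tlr1, chr5:64933564-64933808, minus strand: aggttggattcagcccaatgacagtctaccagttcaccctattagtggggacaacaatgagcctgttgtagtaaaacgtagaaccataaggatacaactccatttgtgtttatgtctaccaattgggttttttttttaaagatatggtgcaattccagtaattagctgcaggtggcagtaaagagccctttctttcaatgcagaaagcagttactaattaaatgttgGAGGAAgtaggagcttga
Tlr2, chr3:83841768-83841858, minus strand: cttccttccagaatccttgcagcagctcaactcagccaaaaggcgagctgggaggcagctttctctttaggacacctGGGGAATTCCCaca
Tlr6, chr5:64959167-64959416, minus strand: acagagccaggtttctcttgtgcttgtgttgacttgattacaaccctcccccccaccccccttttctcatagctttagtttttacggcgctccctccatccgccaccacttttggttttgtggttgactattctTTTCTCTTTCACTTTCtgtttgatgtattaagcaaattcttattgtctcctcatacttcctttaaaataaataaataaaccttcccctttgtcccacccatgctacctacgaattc
Tlr5, chr1:182954538-182954787, plus strand: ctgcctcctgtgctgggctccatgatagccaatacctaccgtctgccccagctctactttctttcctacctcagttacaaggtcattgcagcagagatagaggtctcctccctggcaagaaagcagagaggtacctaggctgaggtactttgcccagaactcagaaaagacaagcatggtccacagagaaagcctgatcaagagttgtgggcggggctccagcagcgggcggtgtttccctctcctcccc
Tlr9, chr9:106222348-106222597, plus strand: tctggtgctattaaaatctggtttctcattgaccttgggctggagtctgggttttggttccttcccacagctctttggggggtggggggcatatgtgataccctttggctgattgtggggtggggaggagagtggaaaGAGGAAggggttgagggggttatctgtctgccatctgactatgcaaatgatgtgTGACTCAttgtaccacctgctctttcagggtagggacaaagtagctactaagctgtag
The Tlr2 stretch holds overlapping kappaB matches in the run GGGGAATTCCC, at 173 to 163 bases before the RefSeq start, and 1.91% of 32851 promoters hold such a match in the same stretch. The Tlr6 stretch, upstream of one of its 2 RefSeq starts, holds overlapping GAAANNGAAA matches on the other strand, at 116 to 107 and 110 to 101 bases before the start, which 2.98% of promoters do. The Tlr9 stretch holds TGACTCA at 58 to 52 bases, which reads as TGANTCA on both strands (6.75% of promoters), and GAGGAA at 112 to 107 bases (23.3%). In Tlr1 the one match was GAGGAA at 23 to 18 bases, found in 22.7% of promoters. None of the 5 motifs is spelled in the Tlr5 stretch. Of the stretches not printed, 72 bases of Tlr3 and those before the second Tlr6 start hold no match, and 179 bases of Tlr13 hold GAGGAA (17.1% of promoters). The 250 bases of Tlr8 hold TTCCTCTGAA at 77 to 68 bases before the start, which reads as TTCNNNNGAA on both strands (5.85% of promoters). They also hold GAGGAA on the other strand at 77 to 72 bases (23.3%). A second Tlr1 start had 39 bases outside exons, too few to be searched. A match describes letters and is no evidence of a bound site.

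Among the surface receptors, Tlr2 (chr3:83836272-83841767, minus strand, GRCm38) spanned the widest range of RPKM in absolute terms, from 18.6 to 350 in the stimulation libraries. The range of Tlr5 was wider as a ratio. Tlr2 was at 242 and 227 CPM in the untreated libraries, 56.0 and 59.5 CPM with IL-4, and 1055 and 921 CPM with LPS. The 3 groups did not overlap, with IL-4 lowest and LPS highest. Tlr2 rose with LPS by a log2 of 2.07 (SE 0.11, adjusted p = 7.26e-05), a 4.21-fold difference, and fell by 2.02 with IL-4 (SE 0.11, adjusted p = 0.00032), a 4.06-fold difference. LPS and IL-4 libraries thus differed 17.1-fold (log2 4.10, SE 0.12, adjusted p = 1.21e-05).

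Tlr1 (chr5:64924679-64933563) and Tlr6 (chr5:64952031-64960097), the partners of Tlr2, are neighbours on the minus strand with 18.5 kb between them, and both rose with LPS. Tlr1 was at 65.5 and 82.0 CPM untreated, 93.7 and 100.8 CPM with IL-4, and 410 and 456 CPM with LPS. Its LPS libraries stood far above the other 4, and its IL-4 libraries lay just above the untreated ones. Tlr1 rose by a log2 of 2.55 with LPS (SE 0.15, adjusted p = 8.03e-05). With IL-4 the log2 difference was 0.40 (SE 0.14, adjusted p = 0.10), and with GC-adjusted offsets the adjusted p was 0.015. Without untreated replicate 2 it was 0.021, with the lone untreated library assumed to vary like the other groups, and with each of the other 3 libraries left out it lay between 0.11 and 0.41. Over the alternatives that kept all libraries its adjusted p ranged from 0.015 to 0.11. Tlr6 was at 17.8 and 21.2 CPM untreated, 20.3 and 23.8 CPM with IL-4, and 60.7 CPM in each LPS library. The LPS libraries were alone in standing high, and the untreated and IL-4 libraries overlapped. Tlr6 rose by 1.64 with LPS (SE 0.13, adjusted p = 0.00024). The 2 genes are similar in sequence: 15.4% of the 50-base stretches of Tlr1 transcripts and 12.3% of those of Tlr6 occur in another gene, so some of their reads could have been assigned to neither.

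Tlr5 (chr1:182954788-182976044, plus strand), the flagellin receptor, fell the most of the 10. It had 242 and 195 counts in the untreated libraries, 284 and 331 with IL-4, and 1 and 4 with LPS. In CPM these were 5.81 and 4.57, then 7.37 and 7.42, then 0.0348 and 0.140. The LPS libraries were almost empty of the transcript, and IL-4 libraries were the highest. From the pooled counts, 5 against 437, the level was 59.4-fold lower with LPS than untreated (95% counting interval 25.3 to 184), and against the 615 counts with IL-4 it was 84.8-fold lower (36.2 to 262). These intervals cover counting error only. The log2 change fitted by edgeR for LPS was -5.84 (SE 0.38, adjusted p = 0.00012), and its size depends on the few counts left.

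Tlr4 (chr4:66827584-66930284, plus strand), the receptor of LPS itself, did not pass the test against untreated cells with either stimulus. It was at 83.0 and 232.8 CPM untreated, 258.9 and 133.0 CPM with IL-4, and 91.3 and 133.8 CPM with LPS. Each pair of replicates differed so widely that the 3 groups overlapped. The log2 difference was -0.49 with LPS (95% interval -2.05 to 1.07, adjusted p = 0.54) and 0.31 with IL-4 (-1.25 to 1.87, adjusted p = 0.79). Rises and falls both lie within these intervals. Between LPS and IL-4 the difference was -0.80 (SE 0.60, adjusted p = 0.32), and with GC-adjusted offsets it passed (-0.81, adjusted p = 0.032). With the replicate block as well it did not pass (-0.83, adjusted p = 0.055).

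Of the endosomal receptors, Tlr3 (chr8:45395665-45411080, minus strand), which binds double-stranded RNA, was the one that rose with LPS. It was at 15.0 and 27.8 CPM untreated, 17.2 and 9.93 CPM with IL-4, and 86.7 and 88.8 CPM with LPS. Both LPS libraries stood above the other 4, while untreated and IL-4 libraries overlapped. Tlr3 rose by a log2 of 2.04 (SE 0.40, adjusted p = 0.012). The call was lost with a single LPS library, which is then assumed to vary like the other groups. The log2 change was then 2.06 without LPS replicate 1 and 2.02 without LPS replicate 2. Over the alternatives other than leaving out 1 library the adjusted p ranged from 1.3e-08 to 0.04. An antisense gene, Gm45542, overlaps an exon of Tlr3, and the sources used here do not say whether the counting used strand, so reads of the pair may be mixed.

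Tlr9 (chr9:106222598-106226883, plus strand), the receptor of CpG DNA, moved the other way. It was at 63.2 and 54.1 CPM untreated, 52.3 and 64.3 CPM with IL-4, and 18.7 and 18.1 CPM with LPS. The LPS libraries lay below the other 4, which overlapped. Tlr9 fell by 1.67 on the log2 scale with LPS (SE 0.14, adjusted p = 0.00030), while the difference with IL-4 was -0.01 (95% interval -0.35 to 0.33).

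Tlr13 (chrX:106143204-106160493, plus strand), which binds bacterial ribosomal RNA, fell with both stimuli. It was at 463 and 663 CPM untreated, 201 and 195 CPM with IL-4, and 222 and 282 CPM with LPS. Neither treated group reached the untreated libraries. The log2 changes were -1.51 with IL-4 (SE 0.21, adjusted p = 0.0053) and -1.16 with LPS (SE 0.20, adjusted p = 0.0048). Between LPS and IL-4 the difference was 0.35 (SE 0.20, adjusted p = 0.20), and with GC-adjusted offsets it passed (0.40, adjusted p = 0.013).

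Tlr7 (chrX:167304929-167330558) and Tlr8 (chrX:167242696-167264329), which bind single-stranded RNA, are neighbours on the minus strand with 40.6 kb between them, and neither passed the test against untreated cells. Tlr7 was at 105 and 265 CPM untreated, 177 and 108 CPM with IL-4, and 290 and 334 CPM with LPS. The LPS libraries lay above both other groups, but the untreated libraries were far apart. Its log2 difference with LPS was 0.75 (SE 0.50, adjusted p = 0.27). Without untreated replicate 1 it was 0.33 (adjusted p = 0.49) and without untreated replicate 2 it was 1.57 (adjusted p = 0.036), each time with 1 untreated library left, which is assumed to vary like the other groups. With GC-adjusted offsets it passed (0.84, adjusted p = 0.017), and the adjusted p ranged from 0.017 to 0.43 over the alternatives other than leaving out 1 library. Against IL-4 the Tlr7 difference with LPS was 1.13 (SE 0.50, adjusted p = 0.12), and 1.14 with GC-adjusted offsets (adjusted p = 0.0054). Tlr8 was at 155 and 478 CPM untreated, 626 and 302 CPM with IL-4, and 230.5 and 341 CPM with LPS, and all 3 groups overlapped.

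**Figure D3:**
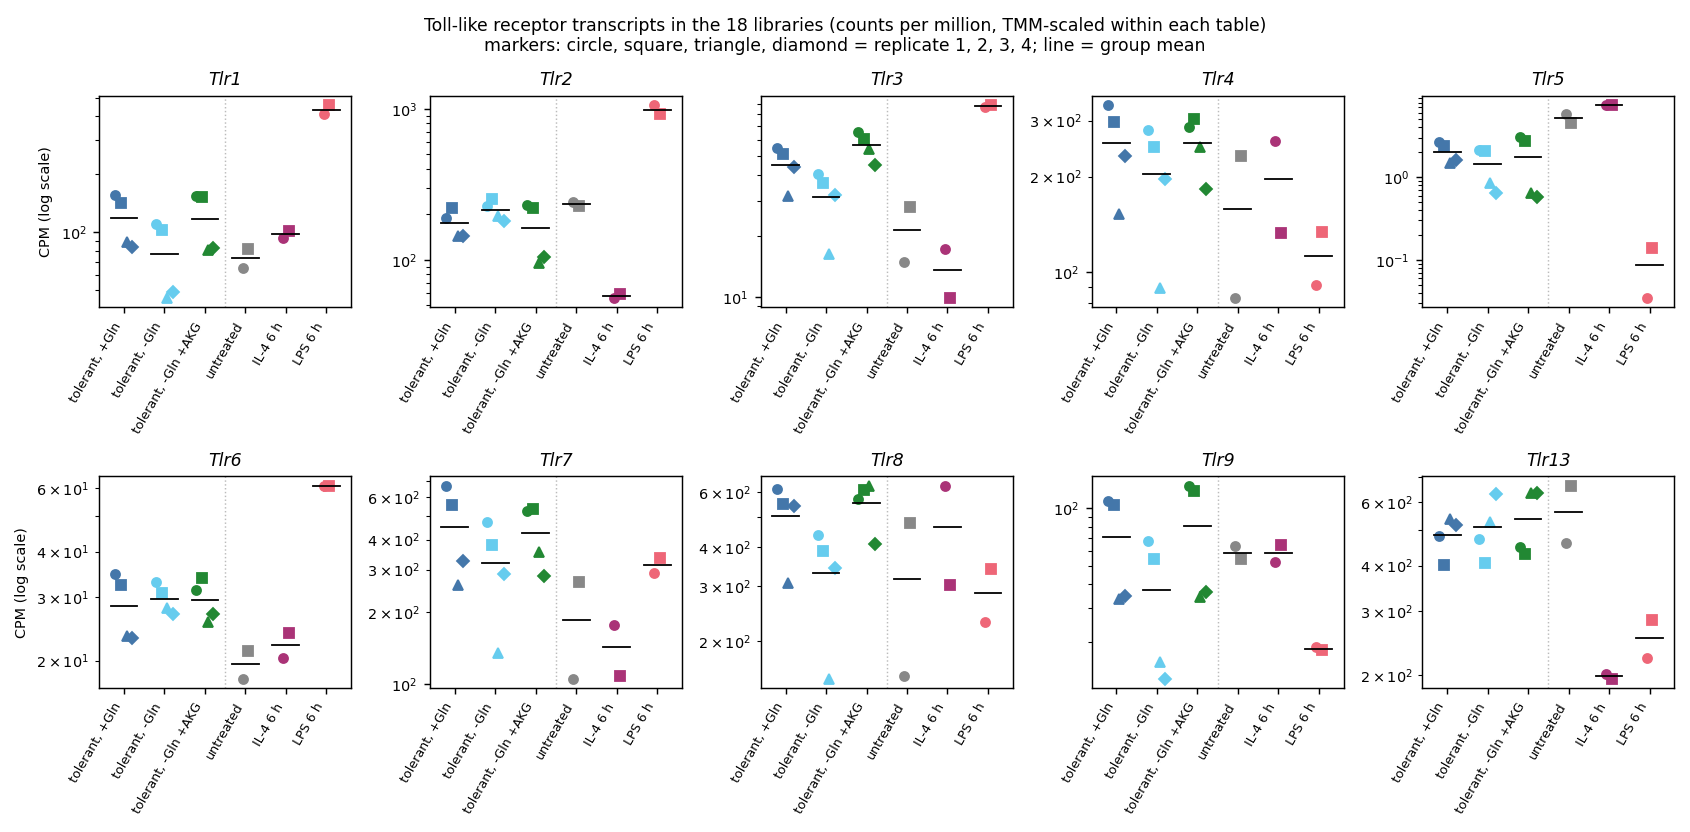
Level of each receptor in every library (vertical axis, CPM on a log scale) by group (horizontal axis), with 1 marker shape per replicate number and a line at the group mean. Tlr1, Tlr2, Tlr3 and Tlr6 are highest in the 2 LPS libraries, Tlr5 and Tlr9 lowest among the stimulation groups there, and in the tolerant groups replicates 3 and 4 lie mostly below replicates 1 and 2.

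Replicate 1 was set against 2 in each group, and replicate 4 against 3 in each tolerant group. By their largest difference over these 9 pairs, Tlr3, Tlr4, Tlr7 and Tlr8 stood highest, apart from Tlr5 with LPS. This order did not hold within every pair. Between replicates 1 and 2 without glutamine Tlr9 differed by 0.30, Tlr7 by 0.32, and Tlr3, Tlr4 and Tlr8 by 0.15, 0.18 and 0.17. Tlr3, Tlr4, Tlr7 and Tlr8 have the most A- and T-rich transcripts of the family (39.4% GC in Tlr4 and 40.1% in Tlr8, against 43.6% to 56.2% for the other 6). The largest log2 differences were 0.97 for Tlr3, 1.49 for Tlr4, 1.33 for Tlr7 and 1.62 for Tlr8. Those for the other members were at most 0.52, except 1.13 for Tlr5, which rested on the 1 and 4 counts with LPS. Pairs across the tolerant replicate sets were left out. Between those sets Tlr9 differed most with and without glutamine (log2 of -1.64 and -2.08), and Tlr5 with AKG (-2.13). The 4 genes differed in the same direction in 8 of the 9 pairs. That direction was also the one in which the lowest-GC quintile of all tested genes (31.0 to 43.8% in the tolerant table) differed, in 9 of 9 pairs for Tlr3 and in 8 of 9 for Tlr4, Tlr7 and Tlr8. Tlr13, at 43.6% GC, also lay in that quintile and went its way in 7 of 9 pairs. The count was 6 of 9 for Tlr1 and for Tlr5, 4 for Tlr9, 3 for Tlr6 and 2 for Tlr2. Between untreated replicates 1 and 2 the lowest-GC quintile had a median log2 difference of -0.62, the highest-GC quintile one of 0.23, and Tlr8 one of -1.62. Replicate 4 against 3 without glutamine had 0.62 and -0.24 for the same quintiles and 1.17 for Tlr8. Why libraries differed by GC content was not tested.

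**Figure D4:**
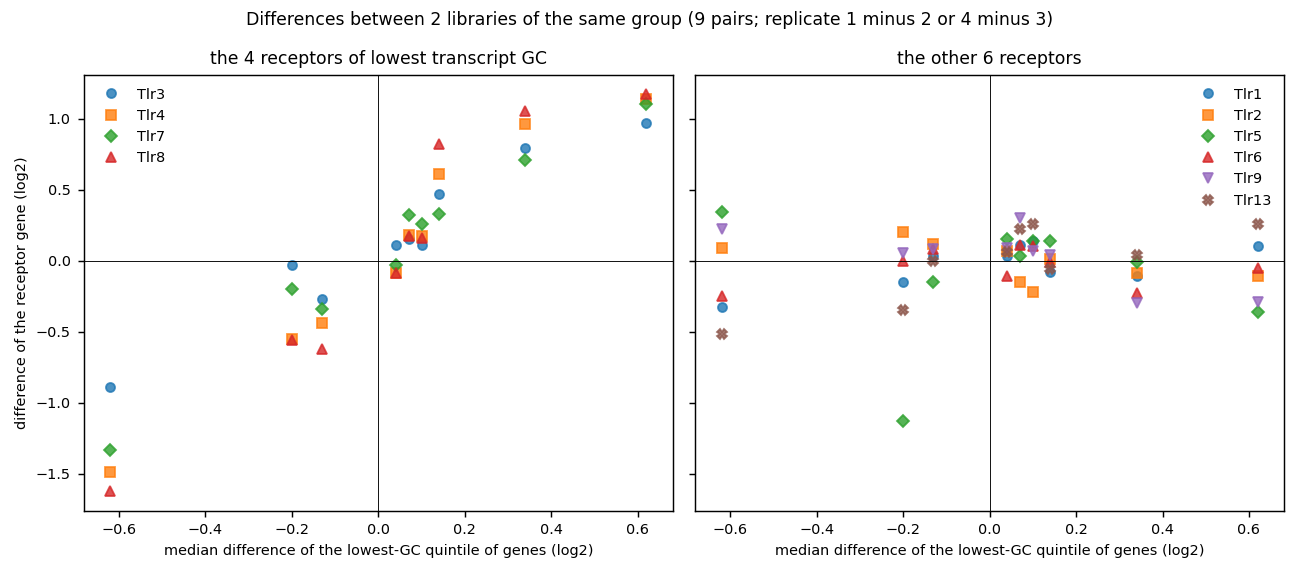
Log2 difference of each receptor between 2 libraries of the same group (vertical axis), replicate 1 minus 2 or 4 minus 3, for 9 pairs. The horizontal axis is the median log2 difference of the lowest-GC quintile of genes in the same pair. On the left Tlr3, Tlr4, Tlr7 and Tlr8 run from -1.62 to 1.17 along with the low-GC genes, and on the right the other 6 stay within 0.52 of 0 except for Tlr5 in the LPS pair.

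In the tolerant macrophages the question was what glutamine and AKG do to transcript levels. No receptor passed the test in any of the 3 comparisons, and for each of the 10 the groups that followed each other in mean level overlapped. Between libraries without and with glutamine, edgeR called 0 of 10, where it called 4.70% of tested genes. At an unadjusted p under 0.05 the count was also 0, and DESeq2 and limma-voom called 0 (10.1% and 3.73% of tested genes). AKG against no glutamine gave 0 of 10 with edgeR (1.49% of tested genes), 2 at an unadjusted p under 0.05, 1 with DESeq2 (5.46%) and 0 with limma-voom (1.67%). AKG against glutamine gave 0 of 10 with each of these tools and 0 at an unadjusted p under 0.05, and edgeR and limma-voom called 0% of all tested genes and DESeq2 1.86%. The median log2 difference of the 10 was -0.50 without glutamine (all tested genes -0.01), 0.37 with AKG against no glutamine (0.01), and 0.03 with AKG against glutamine (0.00). The first 2 comparisons share the libraries without glutamine. The share of all tested genes at an unadjusted p under 0.05 was not counted, here or below.

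Replicates 1 and 2 differed from replicates 3 and 4 in every tolerant group, in the receptors and across the transcriptome. Tlr9 was at 107, 60.7 and 127 CPM on average in replicates 1 and 2 with glutamine, without glutamine and with AKG, and at 34.2, 14.3 and 35.3 CPM in replicates 3 and 4. All members except Tlr13 were lower in replicates 3 and 4 in each of the 3 groups, and Tlr13 was higher there, by a log2 of 0.26, 0.39 and 0.53. Macrophage markers summed to between 41799 and 47876 CPM in replicates 1 and 2, and between 30180 and 36282 CPM in replicates 3 and 4. Stromal fibroblast markers (Col1a1, Dcn and others, 7 of 9 above 1 CPM) moved with both the replicate number and glutamine. With glutamine they summed to 389 to 427 CPM in replicates 1 and 2 and 2010 to 2040 CPM in replicates 3 and 4. Without glutamine the sums were 48.3 to 52.1 and 183 to 198 CPM, and with AKG 107 to 147 and 366 to 375 CPM. None of these markers was at 0 in all libraries, and 5 of the 7 tested fell without glutamine. Their part in the results on the receptors was not tested.

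Same-numbered libraries of the tolerant groups deviated together. Blocking on the replicate number, 2 receptors were called lower without glutamine, Tlr1 and Tlr9, where 21.7% of tested genes were called in either direction. Tlr1 was at 157, 142, 88.6 and 83.8 CPM with glutamine in the 4 replicates in the order of their numbers, and at 110, 102, 45.6 and 49.0 CPM without it. It was lower without glutamine within every replicate number, although the groups overlapped. The log2 difference was -0.62 (SE 0.36, adjusted p = 0.43) without the block and -0.67 (SE 0.08, adjusted p = 0.00040) with it. The adjusted p ranged from 6.5e-05 to 0.49 over the alternatives other than leaving out 1 library. With 1 library left out it ran from 0.31 to 0.71. Tlr9 was at 109, 104, 33.6 and 34.7 CPM with glutamine, and at 67.1, 54.3, 15.8 and 12.9 CPM without. It too was lower within every number. Its log2 difference was -0.91 (SE 0.67, adjusted p = 0.56) without the block and -1.03 (SE 0.10, adjusted p = 0.00013) with it. The adjusted p ranged from 2.3e-05 to 0.61 over the same alternatives, and from 0.41 to 0.83 with 1 library left out.

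With AKG the same 2 receptors and Tlr3 were called higher than without glutamine under the replicate block, where 15.3% of tested genes were called. Tlr1 was at 154, 152, 80.5 and 82.3 CPM with AKG, and Tlr9 at 131, 123, 34.3 and 36.4 CPM. Both were higher than their glutamine-free counterparts within every number. The blocked log2 differences were 0.65 for Tlr1 (SE 0.08, adjusted p = 0.0012) and 1.18 for Tlr9 (SE 0.10, adjusted p = 0.00028), against 0.61 (adjusted p = 0.55) and 1.11 (adjusted p = 0.57) without the block. Over the alternatives other than leaving out 1 library the adjusted p ranged from 0.00025 to 0.66 for Tlr1 and from 4.5e-05 to 0.68 for Tlr9. With 1 library left out it ran from 0.42 to 0.82 for Tlr1 and from 0.43 to 0.83 for Tlr9. Against the libraries with glutamine, the blocked differences with AKG were -0.02 for Tlr1 (SE 0.08, adjusted p = 0.94) and 0.15 for Tlr9 (SE 0.10, adjusted p = 0.52), and 0 of the 10 receptors passed there, where 7.01% of tested genes did.

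Tlr3 was at 54.8, 50.7, 31.6 and 43.9 CPM with glutamine, 40.6, 36.5, 16.4 and 32.1 CPM without, and 65.5, 60.7, 53.9 and 44.7 CPM with AKG. The 4 AKG libraries were all above the 4 without glutamine, and 9.10% of tested genes had groups that did not overlap in this comparison. The log2 difference was 0.84 (SE 0.26, adjusted p = 0.16) without the block and 0.90 (SE 0.17, adjusted p = 0.010) with it. It also passed with DESeq2 and with GC-adjusted offsets (0.77, adjusted p = 0.044). The adjusted p ranged from 7.7e-05 to 0.25 over the alternatives other than leaving out 1 library. With 1 library left out it ran from 0.15 to 0.36. Against glutamine the difference with AKG was 0.31 (95% interval -0.25 to 0.88, adjusted p = 1.0).

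**Figure D5:**
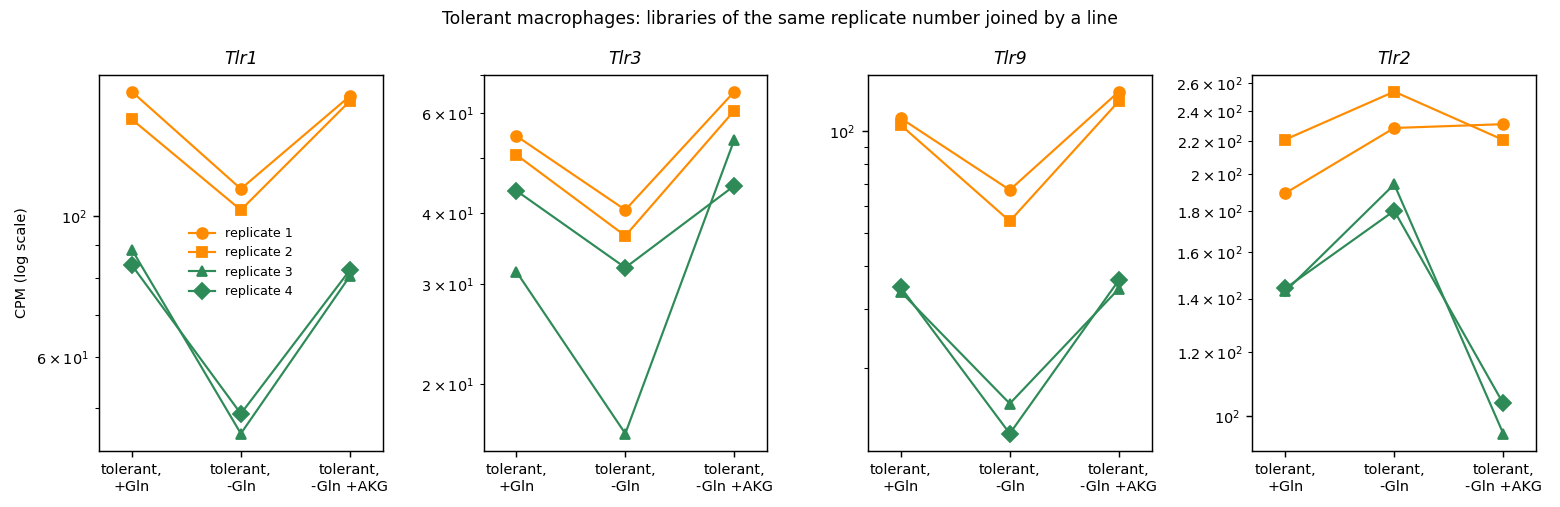
Levels of Tlr1, Tlr3, Tlr9 and Tlr2 (vertical axis, CPM on a log scale) in the 3 tolerant groups (horizontal axis), with libraries of the same replicate number joined, replicates 1 and 2 in orange and 3 and 4 in green. The lines of Tlr1 and Tlr9 dip at the group without glutamine in all 4 replicates, and those of Tlr2 fall from 194 to 95.0 CPM and from 180 to 104 CPM with AKG in replicates 3 and 4, while in replicates 1 and 2 they go from 228 to 231 and from 254 to 221 CPM.

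Other ways of accounting for the replicates gave other counts. With replicates 1 and 2 against 3 and 4 as a term in place of the number, 2 receptors were called without glutamine (24.7% of tested genes), 4 for AKG against no glutamine (18.5%), which added a lower Tlr2, and 0 for AKG against glutamine (9.07%). With GC-adjusted offsets and the replicate block together, Tlr1, Tlr3, Tlr7, Tlr8 and Tlr9 were called lower without glutamine (26.8%) and the same 5 higher with AKG than without glutamine (20.1%). Tlr3 was then also called higher with AKG than with glutamine (9.48%), by a log2 of 0.31 (SE 0.05, adjusted p = 0.0066). GC-adjusted offsets alone called Tlr3 for AKG against no glutamine, where 2.52% of tested genes were called.

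Among the other receptors of the tolerant set, Tlr2 was at 189, 221, 143 and 144 CPM with glutamine, 228, 254, 194 and 180 CPM without, and 231, 221, 95.0 and 104 CPM with AKG. It was the highest within every replicate number without glutamine except in replicate 1, where the AKG library was slightly higher. The AKG difference from no glutamine was -0.09 in replicates 1 and 2 and -0.91 in replicates 3 and 4. The difference between these effects was -0.82 (SE 0.13, adjusted p = 0.081 with edgeR). None of the 10 receptors passed this test in either comparison, where 2.45% (no glutamine against glutamine) and 0.0560% (AKG against no glutamine) of tested genes did. At an unadjusted p under 0.05, 4 receptors did in the first comparison and 3 in the second. The share of all tested genes at that threshold was not counted, so these numbers have no background beside them. Calls at an adjusted p under 0.05 changed when replicate 3 or 4 without glutamine was left out. That leaves 1 library of the group in its replicate set, so the changed calls are not read as results.

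Tlr4, Tlr5, Tlr6, Tlr7, Tlr8 and Tlr13 had an adjusted p above 0.05 in edgeR's test both without the replicate block and with it, if GC content was not adjusted for. Tlr8 ranged from 308 to 614 CPM with glutamine, 152 to 439 CPM without and 409 to 628 CPM with AKG, and its log2 differences were -0.61 (SE 0.31) without glutamine and 0.74 (SE 0.31) for AKG against no glutamine. Tlr7 ranged from 259 to 668, 135 to 474 and 281 to 537 CPM in the same order, and Tlr4 from 153 to 336, 88.9 to 280 and 183 to 305 CPM. The third replicate without glutamine was the lowest of the 12 libraries in Tlr3, Tlr4, Tlr7 and Tlr8. Its lowest-GC quintile of genes lay 0.62 below that of replicate 4 on the log2 scale. Tlr6 stayed between 23.1 and 34.6 CPM and Tlr13 between 402 and 636 CPM over the 12 libraries. Tlr5 did not exceed 3.05 CPM.

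Accessory proteins deliver ligands to these receptors or fold, transport and process them, and 21 such genes were counted. In tolerant macrophages 0 of the 20 tested passed with edgeR in any of the 3 comparisons (2, 3 and 1 at an unadjusted p under 0.05). With the replicate block 6 were lower without glutamine and 0 higher, where 21.7% of all tested genes were called. Among them were Ly86, the partner of Cd180 (-0.70, adjusted p = 0.00011), Unc93b1, which carries the nucleic acid receptors to endosomes (-0.32, adjusted p = 0.0098), and Cnpy3, a folding factor (-0.29, adjusted p = 0.0085). Ly86 was at 360, 314, 172 and 165 CPM with glutamine, 228, 200.3, 105 and 96.8 CPM without, and 371, 396, 187 and 200.5 CPM with AKG. It was lowest without glutamine within every replicate number. Ly86 rose with AKG against no glutamine under the block by 0.89 (adjusted p = 0.00016), and Unc93b1 by 0.35 (adjusted p = 0.010), and without the block the adjusted p was 0.36 and 0.63. Of the 20 genes, 4 were higher and 1, Pld3, lower in that comparison with the block (15.3% of all tested genes called). For AKG against glutamine 1 was higher, Cd180 (0.43, adjusted p = 0.030 with the block and 0.29 without it), where 7.01% were called.

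With LPS 4 of 19 tested accessory genes rose and 5 fell, beside 22.8% and 29.3% of all tested genes, so these shares lie near the background. Cd14, the LPS co-receptor, was at 663 and 562 CPM untreated, 135.2 and 135.0 CPM with IL-4, and 2124 and 1662 CPM with LPS. The 3 groups were ordered as for Tlr2. Cd14 rose with LPS by a log2 of 1.63 (SE 0.16, adjusted p = 0.00042) and fell by 2.18 with IL-4 (SE 0.16, adjusted p = 0.00064). Ly96 (MD-2), which forms the LPS-binding complex with Tlr4, rose with LPS by 0.81 (SE 0.21, adjusted p = 0.021), as did Ap3b1 and Rnaset2a. The genes that fell were Cd180, an inhibitory relative of the receptors (-0.70, SE 0.17, adjusted p = 0.015), Cnpy3 (-0.74), Cnpy4 (-1.10) and the endosomal proteases Lgmn (-0.58) and Ctsl (-0.78). IL-4 gave 1 rise, where 20.1% of all tested genes were called, in Ly86 (0.71, SE 0.09, adjusted p = 0.0045), and 4 falls: Cd14, Cd180 (-1.45, SE 0.17, adjusted p = 0.0032), Slc15a4 (-0.93) and Ctsl (-0.83). Unc93b1 and the chaperone Hsp90b1 passed with neither stimulus, with log2 differences of 0.11 and 0.30 for LPS.

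Of 12 genes of proximal signalling, 8 rose and 3 fell with LPS, beside 22.8% and 29.3% of all tested genes. The adaptor Myd88 was at 96.8 and 88.4 CPM untreated, 65.5 and 72.2 CPM with IL-4, and 453 and 373 CPM with LPS. The LPS libraries stood well above the rest. Myd88 rose by a log2 of 2.16 (SE 0.14, adjusted p = 0.00010), and Ticam1, the adaptor of Tlr3, rose by 0.78 (SE 0.11, adjusted p = 0.0021). Irak3, an inhibitory kinase relative, rose by 3.48 (SE 0.10, adjusted p = 2.59e-05), from 51.2 and 51.1 to 592 and 551 CPM. Those that fell were Irak1 (-0.35), Irak4 (-0.28) and Sarm1 (-2.22), and with GC-adjusted offsets 1 of the 12 fell. With IL-4, 3 of 12 fell (10.5% of all tested genes) and 0 rose: Irak3 (-1.74), Pik3ap1 (-1.23) and Irak2 (-1.04). In tolerant cells Irak2, a kinase of the Myd88 complex, rose without glutamine (0.74, SE 0.15, adjusted p = 0.017), from 33.1 to 50.3 CPM with it to 61.3 to 74.8 CPM without. Pik3ap1, which links the receptors to PI3 kinase, rose with AKG against no glutamine (0.40, SE 0.08, adjusted p = 0.038). Under the replicate block 2 of the 12 were higher without glutamine, Irak2 and Traf3 (0.27, adjusted p = 0.012), and 1 lower, Irak4 (-0.28, adjusted p = 0.016), where 21.7% of all tested genes were called. For AKG against no glutamine the block called Pik3ap1 and Irak4 (0.25, adjusted p = 0.036) higher, and Irak2 (-0.47, adjusted p = 0.034) and Traf3 (-0.31, adjusted p = 0.010) lower (15.3%). No signalling gene was called between AKG and glutamine, where 2 had an unadjusted p under 0.05.

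For each receptor the genes with the most similar pattern were found among 9177 genes by Pearson correlation of log2 CPM over the 18 libraries, centred within each table. These correlations are a description: the libraries share groups, replicate numbers and GC differences. Among the genes nearest to Tlr2 were Cd14 (r = 0.984) and Fkbp15 (0.972). Tlr3 went with Trim30d (0.989) and with Mndal (0.989) and Pydc4 (0.985) of the interferon-inducible PYHIN family, and Tlr5 with Rogdi and Man2a2 (0.985 each) and Lhpp (0.980). Lacc1 (0.978), Klf3 and Marcks were nearest to Tlr1, Inpp5b (0.980), Prkx and Ikzf1 to Tlr6, and Gm2a (0.971), Lrrc45 and Arhgap4 to Tlr9. Tlr4 was nearest to Gm15446 (0.986), Tia1 and AW549877, Tlr7 to Asah2 (0.961), Dclre1c and Ccnl1, Tlr8 to Arid4a (0.961), Smc4 and Slc25a36, and Tlr13 to Herc3 (0.943), Ralgps1 and BC005537. Within the family the closest pairs were Tlr4 with Tlr8 (r = 0.95), Tlr1 with Tlr6 (0.89) and Tlr1 with Tlr3 (0.87), and Tlr5 ran most against Tlr6 (-0.75).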

How the data were processed

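Gene counts were deposited by the authors as 2 tables of raw counts per gene and library. Per the submitters' processing notes STAR, HTSeq and build mm10 were used, with no version, annotation or strand setting given in the sources used here. Libraries were grouped by their labels. The members and gene lists were chosen with earlier results of these data known. Every member was named with its values. Accessory and signalling genes were named when called, with 7 accessory genes named in any case, and the 3 most alike genes per member by correlation. 1 of these alike genes is not reported here.

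Each table was fitted whole with edgeR 4.0.16 in R 4.3.3: genes filtered on group with filterByExpr, TMM factors, robust quasi-likelihood test on group, Benjamini-Hochberg adjustment, calls at an adjusted p under 0.05. edgeR's common dispersion came to a coefficient of variation of 0.271 (tolerant) and 0.174 (stimulation). Alternatives were DESeq2 1.42.0, limma-voom (limma 3.58.1), RLE size factors, other filters, the 2 groups alone, each library left out, the replicate number, or replicates 1 and 2 against 3 and 4, as a term, each of these sets alone and, chosen after seeing the data, GC-adjusted offsets and a crossed block in the stimulation table. The fits were tested on simulated data.

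Replicate numbers of the tolerant set were taken as pairing: deviations of same-numbered libraries correlated at 0.50 to 0.82. Those of replicates 1 and 2, and of 3 and 4, correlated at 0.47 to 0.84 across numbers, and those between the 2 sets at -0.84 to -0.57, so the pairing is no closer than these sets. What a number marks is not in the labels. Positions and exon lengths are from GENCODE on GRCm38. RPKM used summed exon length.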

Additional observations from a re-analysis of the deposited data

Results flagged for a closer look

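Tlr5 moved in opposite directions in replicates 1 and 2 and in replicates 3 and 4 of the tolerant set when AKG was compared with glutamine. In replicates 1 and 2 it was at 2.90 CPM on average with AKG and 2.52 CPM with glutamine, a log2 difference of 0.20. In replicates 3 and 4 it was at 0.615 CPM with AKG and 1.54 CPM with glutamine, a difference of -1.32. The latter rests on few counts, 24 and 22 with AKG and 53 and 63 with glutamine. Every AKG library lay on the stated side of the glutamine libraries of its set. The difference between the 2 sets of replicates was not tested for this comparison.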

How the results depend on the processing

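Of 360 log2 differences with 1 library left out, 310 kept direction and call, 46 changed sign, 2 gained and 2 lost the call. Of 510 under the other alternatives 457 kept both, 18 changed sign and 35 gained the call. Of 150 under those chosen after seeing the data the counts were 117, 6 and 27. RLE size factors moved the members' LPS differences by 0.10 in the median and no other comparison by over 0.08.

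Receptors called without against with glutamine numbered 2 with the replicate block and with the 2 replicate sets as a factor, 6 in replicates 1 and 2 alone (28.5% of tested genes called), 4 in replicates 3 and 4 alone (13.2%), and 5 with GC-adjusted offsets and replicate block. For AKG against no glutamine they numbered 1 with DESeq2 and with GC-adjusted offsets, 3 with the replicate block, 4 with the replicate sets as a factor, 4 in replicates 1 and 2 alone (23.5%), 3 in replicates 3 and 4 alone (5.55%), and 5 with GC-adjusted offsets and block. For AKG against glutamine they numbered 1 in replicates 1 and 2 alone (11.6%), 2 in replicates 3 and 4 alone (6.24%), and 1 with GC-adjusted offsets and block. IL-4 gave 4 with GC-adjusted offsets, with or without the block. Without 1 library the counts stayed at 0 in the 3 tolerant comparisons. Without against with glutamine 1.81% to 3.71% of tested genes were called in these fits. The share was 0.222% to 0.917% for AKG against no glutamine and 0% for AKG against glutamine. In the stimulation table leaving out 1 library leaves 1 in its group, so counts are not read there. With no filter, 1 receptor, Tlr2, had an effect of AKG against no glutamine that differed between replicates 1 and 2 and replicates 3 and 4 (0.0856% of tested genes). Calls of that test also changed when replicate 3 or 4 without glutamine was left out, which leaves 1 library of the group in its set. The replicate block changed no call of a receptor in the tolerant table other than those of Tlr1, Tlr3 and Tlr9. In the stimulation table same-numbered libraries correlated at -0.66 to 0.50. With 2 libraries per group the deviations mirror each other, so these values cannot decide whether numbers mark pairs. With the block the receptors called were 2, 7 and 6, as without it, where 15.7%, 48.3% and 48.8% of tested genes were called. With crossed numbers they were 3, 8 and 8 (31.7%, 63.7% and 64.2% of tested genes).

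Signs changed only in differences that did not pass in the fit reported. In replicates 1 and 2 alone they were: without glutamine Tlr6 -0.07 and Tlr13 -0.01; AKG against none Tlr6 0.04 and Tlr13 -0.00; AKG against glutamine Tlr1 0.03, Tlr2 0.14, Tlr4 -0.10, Tlr5 0.20, Tlr6 -0.04 and Tlr13 -0.01. In replicates 3 and 4 alone they were Tlr5 -0.28 for AKG against none and Tlr7 0.16 for AKG against glutamine. Tlr6 for AKG against none was 0.00 with RLE factors and 0.01 with GC-adjusted offsets, with and without the block. For AKG against glutamine Tlr1 was 0.00 with no filter and Tlr4 -0.01 with GC-adjusted offsets. Tlr9 with IL-4 was 0.01 with RLE factors and DESeq2, 0.04 with the 2 groups alone, and 0.03 and 0.02 with GC-adjusted offsets without and with the block. Tlr8 with LPS was 0.04 with limma-voom and with the crossed block.

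Leaving out 1 library gave these ranges where a sign changed. Without against with glutamine Tlr13 ran from -0.02 to 0.17 and Tlr6 ran from -0.01 to 0.17. For AKG against no glutamine Tlr13 ran from -0.02 to 0.19, Tlr5 ran from -0.12 to 0.58 and Tlr6 ran from -0.08 to 0.05. For AKG against glutamine Tlr1 ran from -0.17 to 0.16, Tlr2 ran from -0.32 to 0.10, Tlr4 ran from -0.17 to 0.17, Tlr5 ran from -0.62 to 0.08, Tlr6 ran from -0.03 to 0.16, Tlr7 ran from -0.28 to 0.16, Tlr8 ran from -0.03 to 0.26 and Tlr9 ran from -0.13 to 0.49. With IL-4 Tlr4 ran from -0.25 to 1.24, Tlr7 ran from -0.81 to 0.43, Tlr8 ran from -0.07 to 1.58 and Tlr9 ran from -0.17 to 0.19. With LPS Tlr4 ran from -0.95 to 0.44 and Tlr8 ran from -0.64 to 0.88. The cause of these changes was not tested. Tlr5 was limited by depth, with 1 and 4 counts in the LPS libraries and as few as 19 in the tolerant ones.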
